A study of Mus musculus with 5 samples.

Results

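Matrix metalloproteinases (MMPs), ADAM and ADAMTS proteases and the tissue inhibitors of metalloproteinases (TIMPs) were followed in mouse embryonic fibroblasts (MEFs) without Dicer after depletion of TARBP2, which binds double-stranded RNA and partners with Dicer in microRNA processing. Members were all genes whose platform symbol is Mmp, Timp, Adam or Adamts with its number, which gave 66 of the 16593 named genes on the array and 99 of its 25697 probes. Of these, 26 genes had a probe above background on at least 2 arrays, beside 8927 genes on the whole array, and 40 did not. Both groups were the same C57BL/6 DICER-null MEF cell line, grown in serum-containing medium and transfected with Lipofectamine. The TARBP2 knockdown group was 2 arrays, siTARBP2-1 and siTARBP2-2, with a different siRNA on each, and the control group was 3 arrays, siControl-1 to siControl-3. Total RNA was taken 48 hours after transfection. Since the controls carry the Dicer deletion as well, every comparison is within cells that lack Dicer. The submitters' design text calls the cells metastatic and the controls mock-transfected, and the sample labels, which say MEF and siControl, were followed. Nothing in the labels says that the arrays came from separate cultures, so p-values measure the spread between these arrays, which may be technical.

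MMPs are zinc-dependent endopeptidases, secreted or membrane-bound, that cut collagens and other matrix proteins and are made as inactive precursors. ADAMs are membrane-anchored relatives that shed ligands and receptors from the cell surface, and ADAMTS enzymes are secreted relatives that cut proteoglycans and other matrix proteins. TIMPs bind the active site of these enzymes, and Timp3, which is held in the matrix, also inhibits several ADAM and ADAMTS enzymes. Fibroblasts are a main source of all these classes, and Mmp13, collagenase 3, is the main interstitial collagenase of rodents.

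The targeted gene was lower on both knockdown arrays. Tarbp2 probe ILMN_2939990 had normalized log2 signals of 7.67 with siTARBP2-1 and 7.18 with siTARBP2-2, against 9.50, 9.55 and 9.36 on the control arrays, which is 24.2% of control (limma, adjusted p = 0.0412). The second Tarbp2 probe had 6.66 and 5.81, against 8.11, 7.99 and 8.13, or 28.0% of control (limma, adjusted p = 0.103). Dicer1 was not above background on any array; whether its probe lies in the deleted part is not known here. Fibroblast markers were above background for 10 of 13 measured genes, among them Col1a1, Vim and Pdgfra, while Thy1, Postn and Lum were not. Epithelial markers were above background for 3 of 5 measured genes: Cdh1 and Krt8 on 2 arrays each and Krt18 on all 5, while Krt5 and Krt14 were not. Krt18, a keratin of simple epithelia, had log2 signals of 5.60 with siTARBP2-1 and 6.58 with siTARBP2-2, against 5.25, 5.87 and 5.39 on the controls, and its change of 1.08 with siTARBP2-2 did not pass (limma, adjusted p = 0.0502). The summed epithelial signal, not normalized, was 252 and 305 on the knockdown arrays, against 253, 271 and 256 on the controls, and its part in the member results was not tested. Leukocyte markers were above background for 1 of 6 measured genes (Elane, near background) and endothelial markers for 0 of 5, with Ptprc, Itgam and Cdh5 below background on every array. Between 12445 and 13051 probes per array were above background.

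Over both siRNAs together no member passed the test (0 of 26; limma, Benjamini-Hochberg adjusted p under 0.05 over all kept probes), where 0.0112% of all genes did. At an unadjusted p under 0.05 there were 6 members, 4 higher (Mmp13, Adam8, Mmp10 and Adamts13) and 2 lower (Mmp28 and Adamts5), which is 23.1%, beside 12.9% of all genes (6.88% higher and 6.03% lower). The log2 change was above 0 for 15 of 26 members, beside 50.1% of all genes. Mmp10 and Adamts13 entered the 26 through the knockdown arrays alone, and Mmp19 through the control arrays alone, so each had to differ in that direction. Adam8 and Adamts4 were above background on both knockdown arrays and 1 control array. Counts and medians over the 26 are therefore descriptions only. In a second limma fit each siRNA had its own coefficient, and the spread came from the 3 control arrays alone. This takes the single array of a siRNA to be as variable as a control array. With siTARBP2-1, 3 of 26 members passed (7.65% of all genes did), and Mmp13 and Adam15 rose (3.88% of all genes did) while Timp3 fell (3.78%). With siTARBP2-2, 2 of 26 passed (4.27% of all genes), and Mmp13 rose (1.75% of all genes did) while Mmp23 fell (2.52%). At an unadjusted p under 0.05 there were 10 members with siTARBP2-1, beside 24.7% of all genes, and 7 with siTARBP2-2, beside 22.9%. The member called with each siRNA in the same direction was Mmp13 (1 of 26; 0.874% of all genes). The siRNA comparisons use the same 3 control arrays. The median log2 change of the 26 members was 0.07 over both siRNAs, 0.07 with siTARBP2-1 and 0.02 with siTARBP2-2, beside 0.00, -0.01 and 0.02 over all genes tested.

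**Figure D1:**
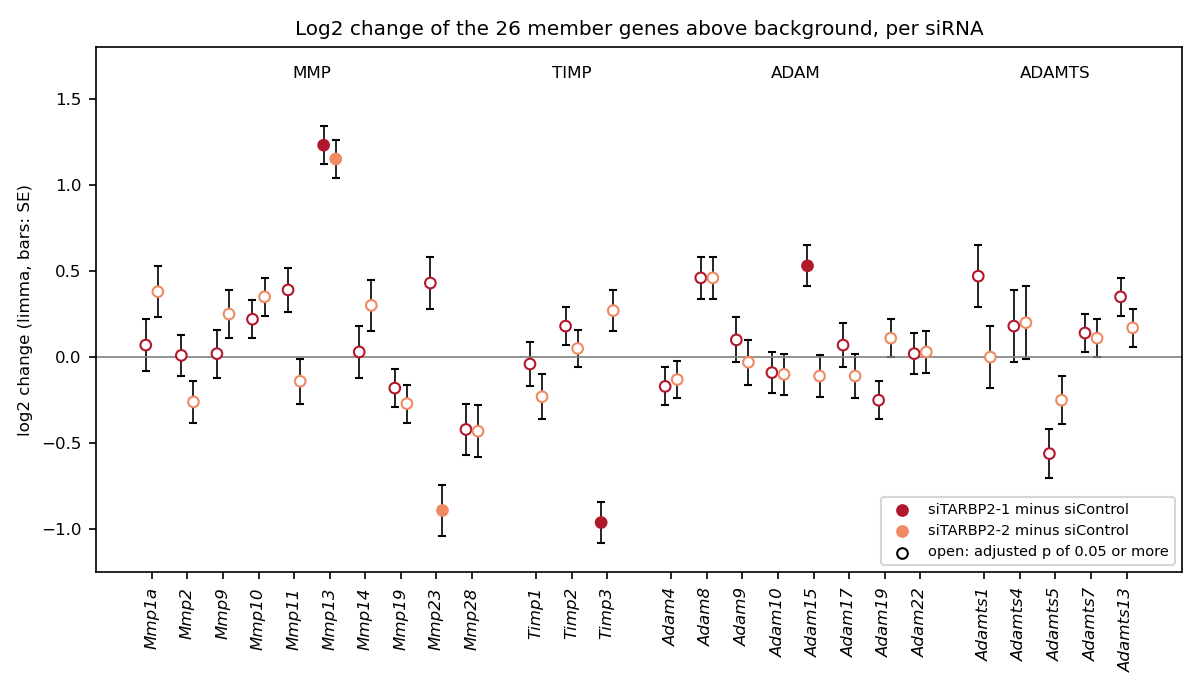
Log2 change against siControl (vertical axis) of the 26 member genes above background, by class along the horizontal axis, dark red for siTARBP2-1 and orange for siTARBP2-2. Points are limma estimates from 1 siRNA array and 3 control arrays, bars are SE, and filled points passed the test: Mmp13 with both siRNAs, Timp3 and Adam15 with siTARBP2-1 and Mmp23 with siTARBP2-2.

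Mmp13, on chromosome 9, was the member with the largest change over both siRNAs, at 2.27-fold of control. Its probe ILMN_2737685 had log2 signals of 6.62 with siTARBP2-1 and 6.54 with siTARBP2-2, against 5.45, 5.33 and 5.41 on the control arrays. Both knockdown arrays lay above all controls, by more than the control SD of 0.0598 (n = 3). The non-normalized signals of the same probe were 143.6 and 145.8 on the knockdown arrays, against 96.3, 94.6 and 93.9 on the controls. Mmp13 rose by 1.23 on the log2 scale with siTARBP2-1 (SE 0.11; limma, adjusted p = 0.00273) and by 1.15 with siTARBP2-2 (SE 0.11; limma, adjusted p = 0.0101). The difference between the siRNAs was 0.08, with a 95% interval of -0.25 to 0.41. Over both together the log2 change of 1.19 did not pass (95% interval 0.94 to 1.44; limma, adjusted p = 0.0511).

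The size of the Mmp13 change depended on the background correction, because the signal is dim. With no background correction it was 0.68 with siTARBP2-1 and 0.62 with siTARBP2-2, and the test was passed with each (limma, adjusted p = 0.000527 and 0.00187). The rise rests on 1 of 3 Mmp13 probes: ILMN_1249336 and ILMN_2799267 were not above background on any array.

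The sequence before and around the Mmp13 start is shown because Mmp13 was called with each siRNA. It lies at chr9:7272264-7272563 of GRCm38.p6 on the plus strand, from 250 bases before to 50 after the RefSeq start, and is credited to RefSeq. Capitals mark the motif TGANTCA, which the AP-1 transcription factors (Fos and Jun proteins) are known to bind, and the letters TATAAA, the TATA box.
Mmp13: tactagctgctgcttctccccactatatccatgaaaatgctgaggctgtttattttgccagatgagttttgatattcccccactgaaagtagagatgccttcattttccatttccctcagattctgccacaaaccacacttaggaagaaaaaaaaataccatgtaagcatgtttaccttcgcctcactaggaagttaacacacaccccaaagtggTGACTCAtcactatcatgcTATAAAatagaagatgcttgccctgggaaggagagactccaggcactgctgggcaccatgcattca
TGANTCA reads the same on both strands, and TATAAA was looked for on both. Of all 32851 RefSeq promoter windows of this length, 7.81% held TGANTCA and 13.6% TATAAA. Among the members 39 genes had a window in the table, 44 windows in all, of which 13 held TGANTCA (29.5%) and 13 TATAAA (29.5%). For members above background 4 of 21 windows held TGANTCA (19.0%), and for those not above background 9 of 23 (39.1%). The counts for TATAAA were the same, 4 of 21 and 9 of 23. A match is a stretch of letters and not a measured binding site.

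Most of these TGANTCA windows belong to Mmp13 and the MMP genes next to it. On chromosome 9 the RefSeq table lists 10 MMP genes in a row with no other protein-coding gene between them: Mmp13, Mmp12, Mmp1b, Mmp3, Mmp1a, Mmp10, Mmp8, Mmp27, Mmp20 and Mmp7. TGANTCA stood in a window of 8 of the 9 genes with an entry, Mmp8 being the exception. The array measured 9 of the 10, and 3 were above background on at least 2 arrays: Mmp13, Mmp1a and Mmp10. Their motifs, in capitals with 10 bases on either side, are shown to set them side by side, at chr9:7272469-7272495, chr9:7464058-7464084 and chr9:7502269-7502295 of GRCm38.p6, all on the plus strand.
Mmp13: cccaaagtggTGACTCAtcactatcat
Mmp1a: ttgtcaaccaTGAGTCAcatagcctct
Mmp10: agcacccatgTGAGTCAtgcttagtga

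The neighbours did not pass the test. Mmp1a, a rodent counterpart of interstitial collagenase, had log2 signals of 5.74 and 6.05 with siTARBP2-1 and siTARBP2-2, against 5.75, 5.81 and 5.47 on the controls. The groups overlapped (log2 change 0.22 over both siRNAs; limma, adjusted p = 0.596). Mmp10, stromelysin 2, had 4.97 and 5.10, against 4.72, 4.75 and 4.77. It was above background on both knockdown arrays and on no control array. Its mean knockdown signal was 1.12-fold of the background limit of the control arrays, a ratio given without an error. The test was not passed (limma, adjusted p = 0.343), and the 95% interval of its log2 change was 0.04 to 0.54. Mmp3, stromelysin 1, was above background on 1 array with 1 of its 3 probes, and Mmp12, Mmp1b, Mmp8, Mmp20 and Mmp7 on no array.

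Mmp23, a membrane-anchored MMP on chromosome 4, was lower with siTARBP2-2 alone as reported. With siTARBP2-1 it was called higher with no background correction, with the series matrix and without siControl-1. Its log2 signal was 8.68 with siTARBP2-1 and 7.35 with siTARBP2-2, against 8.43, 8.18 and 8.11 on the control arrays. The siTARBP2-1 array was the highest of the 5 and the siTARBP2-2 array the lowest. Mmp23 fell to 0.539-fold of control with siTARBP2-2 (log2 change -0.89, SE 0.15; limma, adjusted p = 0.0321) and had 0.43 with siTARBP2-1, which did not pass (limma, adjusted p = 0.137). The difference, siTARBP2-1 minus siTARBP2-2, was 1.33 (95% interval 0.89 to 1.76) and passed (limma, adjusted p = 0.0119). The call against control ended without siControl-2 (log2 change -0.92; limma, adjusted p = 0.0935) and with no filter on dim probes (-0.89; limma, adjusted p = 0.0737).

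The other MMPs above background did not pass in any comparison as reported. Mmp14, the membrane-type MMP that activates the Mmp2 precursor on the cell surface, had 11.92 and 12.18 with siTARBP2-1 and siTARBP2-2, against 12.07, 11.74 and 11.84 on the controls (log2 change 0.17, 95% interval -0.17 to 0.51). Mmp2, gelatinase A, had 11.00 and 10.73, against 11.00, 11.06 and 10.91 (log2 change -0.12, 95% interval -0.42 to 0.17). For both genes the knockdown and control arrays overlapped. Mmp28, epilysin, had 6.09 and 6.08, against 6.43, 6.72 and 6.39. Both knockdown arrays lay below all controls, at 0.745-fold, and the test was not passed (limma, adjusted p = 0.275). Mmp9 (gelatinase B) and Mmp11 (stromelysin 3) each had a log2 change of 0.13 over both siRNAs. For Mmp11 it was 0.39 with siTARBP2-1 and -0.14 with siTARBP2-2, a difference of 0.54. With no background correction, an offset of 50 or the series matrix, Mmp11 was called with siTARBP2-1 and between the siRNAs. With an intensity trend it was called between the siRNAs only. Mmp19 was above background on no knockdown array and on 2 control arrays. Its mean control signal was 1.03-fold of the background limit of the knockdown arrays, a ratio given without an error. The test was not passed (limma, adjusted p = 0.450), and the 95% interval of its log2 change was -0.47 to 0.03. The MMP class held 20 genes on the array and 10 above background, with a median log2 change of 0.13 over both siRNAs and a range of -0.42 to 1.19. Mmp16, Mmp17 and Mmp21 were above background on no array and Mmp24 on 1.

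Among the inhibitors, Timp3 on chromosome 10 was lower with siTARBP2-1 and not with siTARBP2-2. Its probe ILMN_2741096 had log2 signals of 9.41 with siTARBP2-1 and 10.64 with siTARBP2-2, against 10.32, 10.46 and 10.34 on the control arrays. The siTARBP2-1 array was the lowest of the 5 and the siTARBP2-2 array the highest. Timp3 fell to 0.514-fold of control with siTARBP2-1 (log2 change -0.96, SE 0.12; limma, adjusted p = 0.00653). With siTARBP2-2 the log2 change was 0.27 (SE 0.12) and did not pass (limma, adjusted p = 0.230). The difference between the siRNAs, siTARBP2-1 minus siTARBP2-2, was -1.23 (95% interval -1.57 to -0.89; limma, adjusted p = 0.00706).

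The second Timp3 probe, ILMN_2614759, also had siTARBP2-1 below all controls and siTARBP2-2 above them. It had 5.59 with siTARBP2-1 and 6.66 with siTARBP2-2, against 6.26, 6.20 and 6.22 on the controls. Its log2 change was -0.63 with siTARBP2-1 (limma, adjusted p = 0.0202) and 0.43 with siTARBP2-2 (limma, adjusted p = 0.0795), and the siRNAs differed by -1.06 (limma, adjusted p = 0.00934). Over both siRNAs together the Timp3 change of -0.34 has a 95% interval of -1.08 to 0.39, since the arrays moved apart.

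The Timp3 promoter window is shown for contrast with that of Mmp13, as it holds neither TGANTCA nor TATAAA. It lies at chr10:86300162-86300461 of GRCm38.p6 on the plus strand, from the same RefSeq table, and has no capitals because no motif matched.
Timp3: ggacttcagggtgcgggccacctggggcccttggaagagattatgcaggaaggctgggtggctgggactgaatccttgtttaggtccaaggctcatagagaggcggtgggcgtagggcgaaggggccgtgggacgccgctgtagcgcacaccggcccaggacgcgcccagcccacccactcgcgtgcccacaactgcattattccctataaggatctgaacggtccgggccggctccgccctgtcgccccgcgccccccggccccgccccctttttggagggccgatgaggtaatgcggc
The window held 24 CG dinucleotides and a GC content of 67.0%, against 1 and 43.7% in the Mmp13 window; the median of all windows was 7 and 52.7%. Neither motif was in the windows of Mmp23 or Adam15.

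Timp1 and Timp2 did not pass the test in any comparison. Timp1 probe ILMN_2769918 had 11.35 and 11.17 with siTARBP2-1 and siTARBP2-2, against 11.44, 11.47 and 11.28 on the controls (log2 change -0.13, 95% interval -0.42 to 0.15), and its second probe had a log2 change of -0.19. Timp2, the inhibitor that also takes part in Mmp2 activation, had 12.82 and 12.69, against 12.66, 12.65 and 12.60 (log2 change 0.11, 95% interval -0.14 to 0.36). Both knockdown arrays lay above all Timp2 controls, and the test was not passed (limma, adjusted p = 0.702). Timp4 was not above background on any array.

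**Figure D2:**
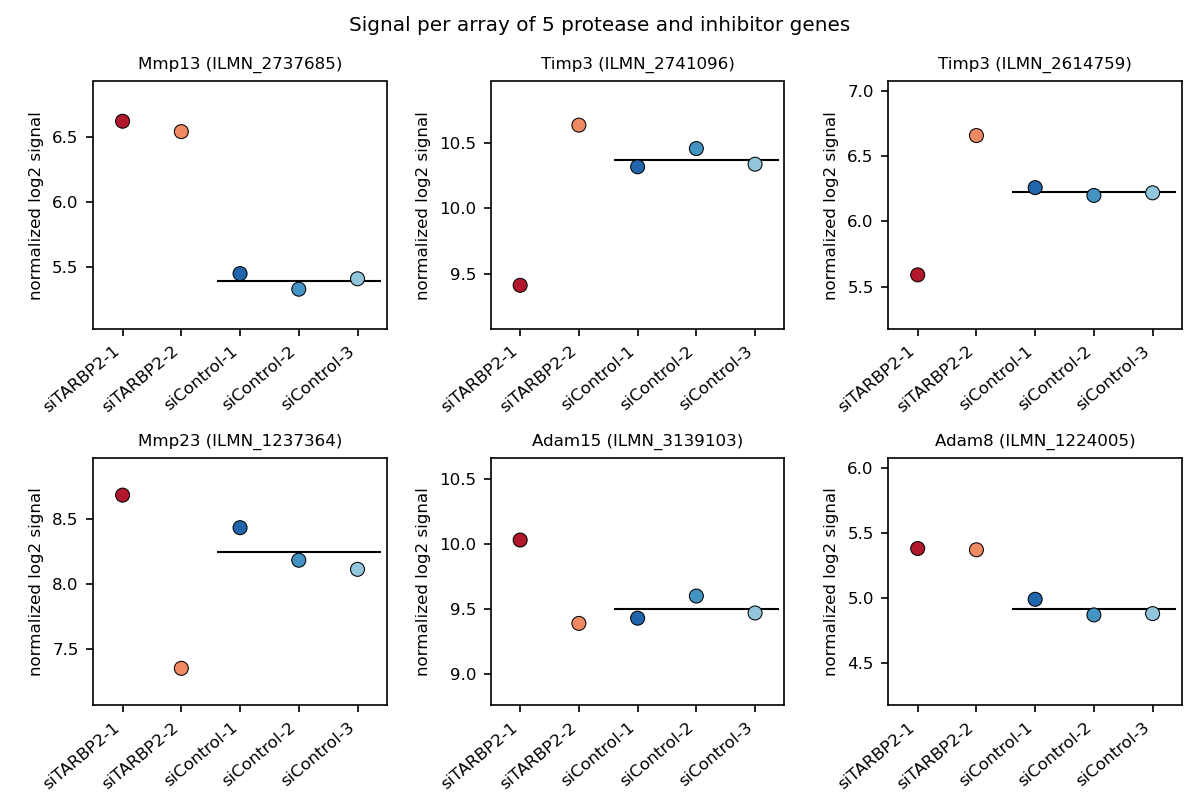
Normalized log2 signal (vertical axis, of the same height in every panel) of Mmp13, both Timp3 probes, Mmp23, Adam15 and Adam8 on each array, siTARBP2-1 and siTARBP2-2 at the left and the 3 siControl arrays at the right; the line is the control mean. Mmp13 lies at 6.62 and 6.54 with the TARBP2 siRNAs, above the controls at 5.33 to 5.45, while Timp3 and Mmp23 lie on opposite sides of the controls with the 2 siRNAs.

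Of the 28 ADAM genes on the array 8 were above background, and Adam15 passed the test with the probe that stands for the gene. A second probe of Adam8 passed as well. Adam15, a widely expressed ADAM with an active protease domain, had log2 signals of 10.03 with siTARBP2-1 and 9.39 with siTARBP2-2, against 9.43, 9.60 and 9.47 on the control arrays. The siTARBP2-1 array lay above all the others. A second Adam15 probe, ILMN_2718144, was above background on 1 array and was not tested. It had 4.62 and 4.54 with siTARBP2-1 and siTARBP2-2, against 4.63, 5.24 and 4.88 on the controls. Adam15 rose to 1.44-fold of control with siTARBP2-1 (log2 change 0.53, SE 0.12; limma, adjusted p = 0.0478). With siTARBP2-2 it had -0.11 (limma, adjusted p = 0.634), and the difference between the siRNAs of 0.64 did not pass (95% interval 0.29 to 0.99; limma, adjusted p = 0.0515). The Adam15 call held under 7 of 12 other settings and ended without siControl-1 (limma, adjusted p = 0.052), without siControl-2 (0.0896), without siControl-3 (0.0863), with median scaling (0.121) and with no filter (0.0723).

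Adam8, an ADAM best known from leukocytes, was higher by a similar amount on both knockdown arrays. Probe ILMN_1224005 had 5.38 and 5.37 with siTARBP2-1 and siTARBP2-2, against 4.99, 4.87 and 4.88 on the controls, and probe ILMN_2756613 had 5.51 and 5.28, against 4.84, 4.71 and 4.83. With each probe both knockdown arrays lay above all controls. Both probes were above background on both knockdown arrays and on 1 of 3 control arrays. The log2 changes over both siRNAs were 0.46 and 0.60 and did not pass (limma, adjusted p = 0.197 and 0.149). The first of these was 0.20 with no background correction, 0.23 with an offset of 50 and 0.21 with the series matrix. Against control with siTARBP2-1 the first probe, which stands for the gene, had 0.46 (limma, adjusted p = 0.061), and the second rose by 0.71 (limma, adjusted p = 0.0173). Of the 6 measured leukocyte markers, Elane was above background on 3 arrays, and Ptprc, Itgam, Adgre1, Lyz2 and Mpo on none. The cell source of Adam8 was not tested.

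The sheddases Adam17 and Adam9 had groups that overlapped. Adam17, which releases tumour necrosis factor and ligands of the epidermal growth factor receptor, had 10.30 and 10.13 with siTARBP2-1 and siTARBP2-2, against 10.13, 10.20 and 10.36 (log2 change -0.02, 95% interval -0.31 to 0.27). Adam9 had 11.26 and 11.13, against 11.02, 11.19 and 11.27 (log2 change 0.03, 95% interval -0.25 to 0.32). Adam10, the other main sheddase, had a log2 change of -0.09, Adam19 -0.07, Adam22, a member without protease activity, 0.03, and Adam4 -0.15 and -0.23 with its 2 probes. The median of the ADAM class was 0.01 over both siRNAs, and 20 ADAM genes were not above background on 2 arrays. Adam2, Adam3, Adam7 and Adam29 were below background on every array. So were Adam5, Adam6a, Adam12, Adam20, Adam21, Adam23, Adam25, Adam26a, Adam28, Adam32, Adam33 and Adam39, while Adam1b, Adam11, Adam24 and Adam30 were above it on 1 array.

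Of the 14 ADAMTS genes on the array 5 were above background and none passed the test: 0 of 5 over both siRNAs (0.0112% of all genes did), with siTARBP2-1 (7.65%), with siTARBP2-2 (4.27%) and between the siRNAs (7.06%). Adamts5, a protease of aggrecan and versican, had log2 signals of 8.01 and 8.32 with siTARBP2-1 and siTARBP2-2, against 8.74, 8.43 and 8.55 on the controls. Both knockdown arrays lay below all controls, at 0.756-fold (log2 change -0.40, SE 0.15; limma, adjusted p = 0.342). With siTARBP2-1 it had -0.56 (limma, adjusted p = 0.0671), and it passed there with no background correction and under 5 other settings. Adamts1, which also cuts versican, had 7.44 and 6.96, against 7.20, 6.96 and 6.73 (log2 change 0.24, limma, adjusted p = 0.656). Its dimmer second probe was above background on 2 control arrays alone, with a control mean not above the background limit of the knockdown arrays. Adamts13, the protease of von Willebrand factor, had 5.06 and 4.88, against 4.72, 4.72 and 4.69. It was above background on both knockdown arrays and on no control array. Its mean knockdown signal was 1.07-fold of the background limit of the control arrays, a ratio given without an error. The test was not passed (limma, adjusted p = 0.400), and the 95% interval of its log2 change was 0 to 0.52. Probes ILMN_1244084 and ILMN_3038544 of Adamts13 were above background on no array and were not tested. ILMN_1244084 had 4.35 and 4.41, against 4.57, 4.54 and 4.63, and ILMN_3038544 had 4.33 and 4.23, against 4.31, 4.32 and 4.43. Adamts4 and Adamts7 had log2 changes of 0.19 and 0.13, and 9 members were above background on no array: Adamts3, Adamts8, Adamts12, Adamts15, Adamts16, Adamts17, Adamts18, Adamts19 and Adamts20.

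Across the 26 members the knockdown and control arrays did not overlap for 11 genes: 6 were higher on both knockdown arrays (23.1%; 16.2% of all genes) and 5 lower (19.2%; 15.1% of all genes). Those higher were Mmp13, Mmp10, Timp2, Adam8, Adamts7 and Adamts13, and those lower were Mmp19, Mmp28, Adam4, Adam10 and Adamts5. Of these, Mmp10, Adamts13 and Mmp19 were above background in the higher group alone, and the counts support nothing by themselves. Between the siRNAs 2 of 26 members passed (7.06% of all genes), Mmp23 higher (3.72%) and Timp3 lower (3.34%) with siTARBP2-1. At an unadjusted p under 0.05 there were 5, beside 25.4% of all genes.

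**Figure D3:**
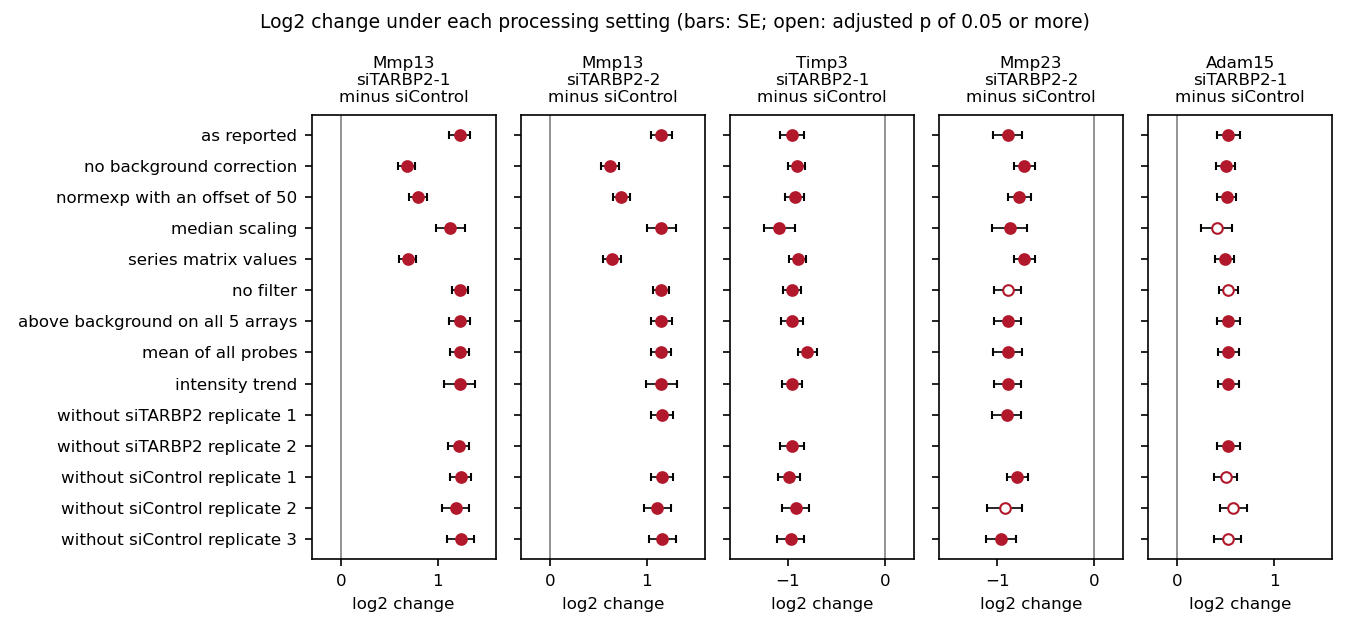
Log2 change against siControl (horizontal axis) of the 5 member changes that passed the test, under each processing setting (vertical axis); points are limma estimates, bars SE, and open points did not pass. Mmp13 and Timp3 passed under every setting drawn, with the Mmp13 change lowest with no background correction (0.68 with siTARBP2-1 and 0.62 with siTARBP2-2), while Mmp23 and Adam15 each lost the call under some.

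Related genes were counted from lists chosen with earlier results of these data known. Over both siRNAs 0 of 46 passed the test, where 0.0112% of all genes did. Among factors known to bind MMP promoters, 12 were measured, with a median log2 change of 0.19 over both siRNAs. Fosl1, an AP-1 subunit, rose by 0.73 with siTARBP2-2 (limma, adjusted p = 0.0412) and had 0.40 with siTARBP2-1 (0.134). Fos, another AP-1 subunit, fell with siTARBP2-1 (-0.58; limma, adjusted p = 0.0266) and had -0.44 with siTARBP2-2 (0.078). Jun and Junb had 0.40 and 0.42 over both siRNAs and did not pass (limma, adjusted p = 0.265 and 0.302).

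Of 6 measured MMP and ADAMTS substrates, Col1a1, the main chain of type I collagen and a substrate of Mmp13, fell with each siRNA. Its log2 signals were 10.14 and 10.25 with siTARBP2-1 and siTARBP2-2, against 10.84, 10.83 and 10.73 on the controls. The log2 changes were -0.65 (limma, adjusted p = 0.0214) and -0.55 (limma, adjusted p = 0.0491). Col1a2, the other chain of type I collagen, had -0.04 and -0.01 and did not pass (limma, adjusted p = 0.874 and 0.976). Col3a1 fell with siTARBP2-1 (-0.59; limma, adjusted p = 0.0245) and had 0.13 with siTARBP2-2. The proteoglycan Dcn (0.27 and 0.42), the matrix glycoprotein Fbln1 (0.38 and 0.22) and the cartilage collagen Col2a1 (0.13 and 0.16) had values above 0 with siTARBP2-1 and siTARBP2-2 and did not pass. The summed non-normalized signal of the 10 fibroblast markers, which include Col1a1, Col1a2, Col3a1 and Dcn, was 7650 and 8560 on the knockdown arrays, against 9260, 9440 and 8890 on the controls. Such sums can also carry differences in scale between arrays. On the normalized scale the median log2 change of the 10 was -0.36 with siTARBP2-1 and -0.02 with siTARBP2-2. Vim, one of the 10, had 0.12 and -0.03. The part of these markers in the member results was not tested. In RNA of a whole culture, fewer cells of a kind and less RNA per cell cannot be told apart.

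Of 10 measured MMP and ADAM regulators, Thbs1, the matrix glycoprotein thrombospondin 1, fell with siTARBP2-2 (-1.09; limma, adjusted p = 0.0125) and Thbs2 with siTARBP2-1 (-0.80; limma, adjusted p = 0.0355). Adamtsl4, an ADAMTS-like protein without a protease domain, rose with siTARBP2-2 (0.54; limma, adjusted p = 0.0496). For these 3 the siRNAs lay apart: siTARBP2-1 minus siTARBP2-2 was 0.81 for Thbs1, -0.92 for Thbs2 and -0.77 for Adamtsl4. Reck, a membrane inhibitor of MMPs, and the precursor protease Furin had -0.05 and -0.32 over both siRNAs and did not pass. Among 7 other matrix proteases the heparanase gene Hpse (1.15; limma, adjusted p = 0.00548) and the cathepsin Ctsl (0.56; limma, adjusted p = 0.0363) rose with siTARBP2-1, and the endothelin-converting enzyme Ece1 fell (-0.93; limma, adjusted p = 0.00567). With siTARBP2-2 Hpse had 0.14, Ctsl -0.17 and Ece1 -0.04 and did not pass. The log2 difference, siTARBP2-1 minus siTARBP2-2, was 1.01 for Hpse, 0.73 for Ctsl and -0.89 for Ece1. The 3 measured plasminogen system genes passed in no comparison, and over both siRNAs 0.0112% of all genes did. Plaur, the urokinase receptor, had 0.34 over both siRNAs.

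Of 8 measured ADAM-shed ligands and receptors, Cxcl16, a membrane chemokine shed by ADAM10, rose with each siRNA, by 0.64 with siTARBP2-1 (limma, adjusted p = 0.0215) and 1.24 with siTARBP2-2 (limma, adjusted p = 0.00948). Nrg1, a neuregulin, fell with siTARBP2-1 (-0.86; limma, adjusted p = 0.00989), and Notch1 rose with siTARBP2-2 (0.98; limma, adjusted p = 0.0125). The siRNAs lay apart for these genes: siTARBP2-1 minus siTARBP2-2 was -0.60 for Cxcl16, -1.27 for Nrg1 and -0.74 for Notch1. Median log2 changes over both siRNAs were 0.34 for the plasminogen system, -0.09 for the regulators, 0.20 for the other proteases, 0.06 for the substrates and 0.02 for the shed ligands, beside 0.00 for all genes.

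Markers of skeletal cells, which are another source of Mmp13, were above background for 3 of 6 measured genes, Sox9, Col2a1 and Col10a1, while Acan, Sp7 and Bglap were below background on every array. Their summed non-normalized signal was 394 with siTARBP2-1 and 341 with siTARBP2-2, against 310, 325 and 323 on the controls. Col10a1, the collagen of hypertrophic cartilage, rose by 1.41 with siTARBP2-1 (limma, adjusted p = 0.00541) and had -0.30 with siTARBP2-2 (0.318). Sox9, a transcription factor of cartilage, had -0.26 with siTARBP2-1 and 0.55 with siTARBP2-2, neither of which passed, while the difference of -0.81 did (limma, adjusted p = 0.0293). Col2a1 had 0.13 and 0.16, so that the higher sum with siTARBP2-1 lies with Col10a1. The part of these markers in the Mmp13 result was not tested.

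The authors' deposited table of log2 fold changes marks Mmp13 (0.14), Adam8 (0.11), Mmp14 (0.17) and Timp2 (0.12) as higher among the members. In the authors' deposited table Timp3 stood at -0.16, Mmp23 at -0.12 and Adam15 at 0.05, beside -1.19 for Tarbp2. The deposited values are given by transcript, whereas a gene here is its probe with the highest mean. How the authors combined the arrays, and any probes of the same transcript, is not stated. The background correction behind these values is not stated either, and the base of the logarithm is taken as 2.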

How the data were processed

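Gene expression was measured on Illumina BeadChips in 2 siTARBP2 and 3 siControl arrays. The non-normalized probe intensity and the detection p-value of each probe are as deposited by the authors. The deposited series matrix holds the authors' quantile-normalized intensity on a linear scale (medians 80.3 to 80.4), made with lumi per the submitters' processing notes (version not given), and its log2 was taken for the fits. Further, the authors' deposited fold table holds log2 fold changes and a 0 or 1 score that marks higher genes. No source used here names the genome build behind the probes. The detection column of siTARBP2-2 did not follow its signal (Spearman 0.000598, against -0.961 to -0.967 on the other arrays) and was replaced by the mean p at the same signal rank.

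From the intensities, limma 3.58.1 (R 4.3.3) gave background correction by neqc with an offset of 16, quantile normalization and log2 values. A probe entered the fits if its detection p was under 0.05 on 2 arrays or more, as for 13123 of 25697 probes, and p-values were Benjamini-Hochberg adjusted over all of them at 0.05. A gene is its probe with the highest mean. Of all probes 23978 have 1 symbol, 0 several and 1719 none. One fit compared both siRNAs with siControl and another gave each siRNA its own coefficient. Intervals are 95%. The number of arrays limits the precision. The script was tested on simulated data. Members and lists were chosen with earlier results of these data known. Values on every array are given for members that passed in any comparison and for the 2 per class with the highest signal or the largest change over both siRNAs; Mmp1a and Mmp10 were added as neighbours of Mmp13. Protein and probe sequences were not used here. Alternatives were the background correction, scaling, series matrix, filter, probe choice, intensity trend, leaving out each array and a replicate block.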

Additional observations from a re-analysis of the deposited data

Results flagged for a closer look

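Timp3 and Mmp23 are given again because their changes with the siRNAs differed by a test of that difference. For Timp3 the log2 difference, siTARBP2-1 minus siTARBP2-2, was -1.23 (limma, adjusted p = 0.00706), with both probes in that direction. For Mmp23 it was 1.33 (limma, adjusted p = 0.0119). Each siRNA was on 1 array, so an effect of the siRNA and of its array cannot be told apart.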

How the results depend on the processing

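Mmp13 passed with each siRNA under all 12 alternatives, at 0.68 to 1.24 with siTARBP2-1 and 0.62 to 1.16 with siTARBP2-2, and Timp3 passed with siTARBP2-1 throughout, at -1.09 to -0.80. For each siRNA the 12 include leaving out the array of the other siRNA. That array adds nothing to the spread in this fit, so leaving it out could hardly change a call. Over both siRNAs, with 0 members called as reported, 1 was called (Mmp13) with median scaling or when only probes above background on all 5 arrays were kept. Leaving out an array gave 0 to 3: the 2 without siTARBP2-1 and the 3 without siTARBP2-2 came with 4.35% and 7.83% of all genes called, against 0.0112% as reported. With siTARBP2-1 the 3 calls became 6 with no background correction, 5 with an offset of 50 and 6 with the series matrix, where 13.7%, 13.3% and 13.7% of all genes were called, and 2 to 5 when an array was left out. With siTARBP2-2 the 2 calls became 1 with no filter, and 1 to 2 when an array was left out. Between the siRNAs the 2 calls became 4 with no background correction, an offset of 50, the series matrix or an intensity trend, where 14.1%, 13.7%, 14.0% and 13.8% of all genes were called, and 2 to 3 when an array was left out. Some changes over both siRNAs, none of them called as reported, reversed. When each array was left out in turn, Adam15 ranged from -0.11 to 0.53, Adam9 from -0.04 to 0.10, Adam17 from -0.11 to 0.06, Adamts1 from 0.00 to 0.47, Mmp2 from -0.26 to 0.01, Mmp23 from -0.90 to 0.43 and Timp3 from -0.96 to 0.27. Of these ends Adam15 0.53, Mmp23 -0.90 and Timp3 -0.96, which leave 1 siRNA array, were called (limma, adjusted p = 0.0459, 0.0321 and 0.00638). Others were, with median scaling, Adam9 -0.01 and, with a replicate block, Adam17 0.05. The cause was not tested. Median scaling moved the median of all genes to -0.12 with siTARBP2-1. With the replicate number as a block 0 members were called over both siRNAs (Mmp13 1.19; limma, adjusted p = 0.467). Deviations from the group means had correlations of -0.0485 and -0.0266 between arrays of the same number. With 1 array per siRNA these deviations hold the difference between the siRNAs. They therefore cannot show whether arrays of the same number were paired. Signals near background limit Mmp13, Mmp10, Adam8 and Adamts13.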
